A study of Mus musculus with 8 samples.

Results

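The genes C1qa, C1qb and C1qc encode the A, B and C chains of complement component C1q. They were picked by symbol from a count table of cortex RNA, and are 3 of the 22869 gene symbols in it. Where a symbol had several rows, the row with the highest mean count over the 8 libraries was to be kept. Each chain had 1 row, so this choice removed nothing. The chains were chosen with their higher level under bexarotene already known from these libraries. The p-values given for them below therefore describe the libraries and are not independent evidence.

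The libraries came from the cortex of APP/PS1 mice, which carry transgenes that lead to amyloid plaques, on a C57BL/6 background. One group of 4 had received bexarotene, a drug that activates retinoid X receptors, and the other group of 4 had received glycerol at 0.2 mg/kg, called vehicle here. Both groups carry the APP/PS1 genotype. The sources used here do not give the promoter of the transgenes, how much bexarotene was given or for how long, the mice's age or sex, or how many animals went into a library. The p-values therefore describe spread from library to library, part of which may be technical. Vehicle replicates 1 and 3 differed from vehicle replicates 2 and 4 in sex-linked transcripts, given below. These vehicle libraries were thus not all repeats of the same RNA sample.

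C1q is the recognition unit of the classical complement pathway. The A, B and C chains join in equal numbers through collagen-like stalks, and their globular heads bind antibody, pentraxins, apoptotic cells and amyloid. Bound C1q activates the proteases C1r and C1s, which cleave C4 and C2 and lead to cleavage of C3. In the brain the chains are made mainly by microglia, and C1q tags synapses for removal by these cells.

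The chain genes are neighbours on mouse chromosome 4, in the order C1qb, C1qc and C1qa in the RefSeq annotation of GRCm38.p6, between the ephrin receptor genes Ephb2 and Epha8. The RefSeq promoter table held C1qb and C1qc. The 250 bases before their start sites are shown because the genes lie side by side and their transcripts moved together. Both are on the minus strand of GRCm38.p6, at chr4:136886201-136886450 for C1qb and chr4:136892915-136893164 for C1qc, and are written 5′ to 3′ on the strand of the gene. Capitals mark matches, on either strand, to GAGGAAGT (a site of PU.1, the ETS factor of macrophages), AGGAAG (the ETS core, which overlaps it) and AGGTCA (a single copy of the nuclear receptor motif).
C1qb: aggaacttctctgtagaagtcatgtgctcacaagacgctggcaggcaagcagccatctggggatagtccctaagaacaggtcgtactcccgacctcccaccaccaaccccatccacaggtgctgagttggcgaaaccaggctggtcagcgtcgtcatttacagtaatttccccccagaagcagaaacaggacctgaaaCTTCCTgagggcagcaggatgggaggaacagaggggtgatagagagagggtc
C1qc: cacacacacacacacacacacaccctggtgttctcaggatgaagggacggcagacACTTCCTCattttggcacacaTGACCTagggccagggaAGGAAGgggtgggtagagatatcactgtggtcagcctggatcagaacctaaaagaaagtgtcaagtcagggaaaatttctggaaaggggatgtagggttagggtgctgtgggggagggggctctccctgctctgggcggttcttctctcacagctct
These motifs were chosen after the sequences had been read, and a match is a description, not a shown binding site. GAGGAAGT occurred in C1qc, starting 195 bases before the start site on the opposite strand, and in 2.44% of the 32851 start sites of the table. AGGAAG, found in 29.5% of start sites, occurred 2 times in C1qc, 1 of them inside that match, and 1 time in C1qb, 52 bases before its start. AGGTCA, found in 14% of start sites, occurred in C1qc at 174 bases before the start, on the opposite strand. The spaced repeats AGGTCANAGGTCA, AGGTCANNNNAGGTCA and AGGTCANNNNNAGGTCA, bound by pairs of nuclear receptors that include the bexarotene receptor, were not in either window, nor was the IRF repeat GAAANNGAAA. They occurred in 0.0335%, 0.0152%, 0.00913% and 2.98% of start sites.

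Library totals, summed over every row, ranged from 42413825 to 76542067 counts. Replicates 1 and 3 of both groups lay apart from replicates 2 and 4 of both groups on the first principal component, which held 36.7% of the variance of log2 CPM. CPM is the count scaled by the library total over tested rows and by the TMM factor, which adjusts for composition. All 4 bexarotene libraries held both Xist, an RNA of female cells (84.7 to 218 CPM), and transcripts of Y-linked genes (9.81 to 88.5 CPM in sum). The vehicle libraries held one or the other, with at most 0.861 CPM of Xist in replicates 2 and 4 and at most 0.282 CPM of Y-linked transcripts in replicates 1 and 3. Markers of the choroid plexus summed to 75.2 to 1457 CPM under bexarotene, with the highest value in replicate 2, and to 15.9 to 41.5 CPM under vehicle. All 7 choroid plexus markers were tested and higher. Only 1 of them, Ttr, had groups that did not overlap, as in 3.61% of all genes tested. Ttr was at 68.0, 1397, 58.7 and 213 CPM in bexarotene replicates 1 to 4, most of each sum. It was at 6.14, 33.0, 14.8 and 26.3 CPM in vehicle replicates 1 to 4. Striatum markers summed to 271 to 1235 CPM under bexarotene and 212 to 646 CPM under vehicle, and the 8 neuron markers, all tested, to 4391 CPM or more in every library. Because of the clusters, values for the chains are also given within replicates 1 and 3, within replicates 2 and 4, and without single libraries. These subsets do not separate treatment from the joint presence of Xist and Y-linked transcripts or from the higher choroid plexus sums. The joint presence and the higher sums mark every bexarotene library and no vehicle library, so they cannot be told apart from bexarotene. For the sums this rests on Ttr, since the groups overlapped for each of the other choroid plexus markers.

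All chains were higher in every bexarotene library than in any vehicle library, by a factor of 1.44 to 1.65 in the fit. C1qa, the A chain, was at 122, 84.3, 102 and 125 CPM in bexarotene replicates 1 to 4. It was at 59.9, 65.9, 83.2 and 63.6 CPM in vehicle replicates 1 to 4. The groups were close at their edge: bexarotene replicate 2 was only 1.01 times vehicle replicate 3, and these were the lowest treated and the highest vehicle library. The means were 108 ± 18.9 and 68.2 ± 10.3 CPM (SD, n = 4), and the log2 fold change was 0.67 ± 0.14 (SE).

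C1qb, the B chain, was at 124, 94.1, 97.6 and 128 CPM in the bexarotene libraries and at 62.3, 65.9, 79.3 and 61.8 CPM in the vehicle libraries. Bexarotene replicates 1 and 4 were again the highest and vehicle replicate 3 again led its group, but the gap between groups was wider, with the lowest treated library at 1.19 times the highest vehicle library. The log2 fold change was 0.72 ± 0.13 (SE). C1qc, the C chain, was at 102, 74.6, 85.0 and 104 CPM under bexarotene and at 59.6, 62.5, 69.3 and 62.1 CPM under vehicle. Its vehicle libraries lay closest together, with a SD of 6.58% of the mean, against 15.5% for the bexarotene libraries. The log2 fold change of C1qc was 0.53 ± 0.11 (SE), the smallest of the chains. The groups did not overlap, with bexarotene higher, in 3.61% of all genes tested.

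**Figure D1:**
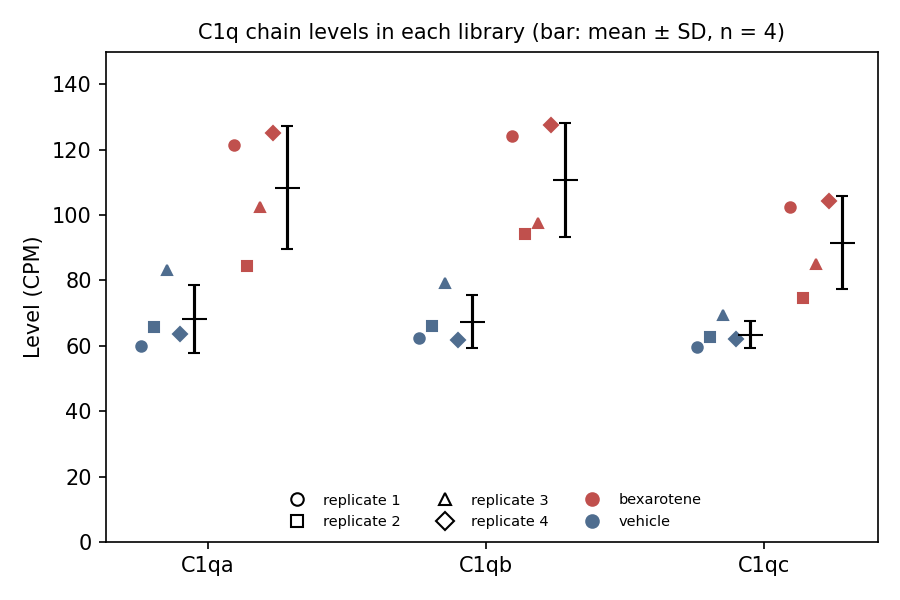
Level of each C1q chain in CPM (y axis) in the 4 vehicle and 4 bexarotene libraries, with the marker shape giving the replicate number and the bar the mean ± SD. Every bexarotene library lies above every vehicle library, narrowly for C1qa (84.3 against 83.2 CPM) and by more for C1qb (94.1 against 79.3 CPM).

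None of the chains passed the threshold over all genes in edgeR's quasi-likelihood test, where each had an adjusted p of 0.36. That test called 1 gene of 16069, or 0.00622%. The unadjusted p-values of C1qa, C1qb and C1qc were 0.000868, 0.000196 and 0.000856 in the same edgeR fit, and 38, 9 and 37 genes had a smaller one. An unadjusted p below 0.05 with a higher level was found for 4.88% of genes. Exact permutation of the libraries on log2 CPM (two-sided) gave p = 0.0286 for each chain, the smallest value that 4 against 4 libraries allow. DESeq2 called all of the chains, with adjusted p-values of 0.00687, 0.000383 and 0.0116 for C1qa, C1qb and C1qc, where it called 0.585% of genes higher. edgeR's exact test called C1qa (adjusted p = 0.0327) and C1qb (adjusted p = 0.00331) but not C1qc (adjusted p = 0.0579), where it called 0.18% of genes higher.

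The chains were higher under bexarotene in each cluster of libraries. Within replicates 1 and 3 the log2 fold change was 0.65 for C1qa, 0.65 for C1qb and 0.54 for C1qc. Within replicates 2 and 4 it was 0.69, 0.79 and 0.52. C1qc passed the edgeR quasi-likelihood test within replicates 1 and 3 (adjusted p = 0.0494), where 2.06% of genes were called higher, and the same test called 0 genes within replicates 2 and 4, where 859 had an unadjusted p below 0.05. Among vehicle libraries, the replicates with Xist (59.9 and 83.2 CPM of C1qa) and those with Y-linked transcripts (65.9 and 63.6 CPM) overlapped. Without bexarotene replicate 2, the library with the most choroid plexus transcripts, the log2 fold changes were 0.78, 0.79 and 0.62.

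The chains are short transcripts, of 1040, 1088 and 1203 nt for C1qa, C1qb and C1qc in GENCODE M21, and the difference between groups ran with transcript length over all genes. The median log2 fold change was 0.14 for 1255 genes with transcripts of 700 to 1500 nt and -0.13 for 1493 genes with transcripts over 6000 nt, among genes with a mean above 2 log2 CPM. With the trends on transcript length and GC content taken out of each library, the log2 fold changes were 0.49 ± 0.13, 0.54 ± 0.12 and 0.36 ± 0.10 (SE), and the edgeR adjusted p-values were 0.747, 0.703 and 0.778.

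**Figure D2:**
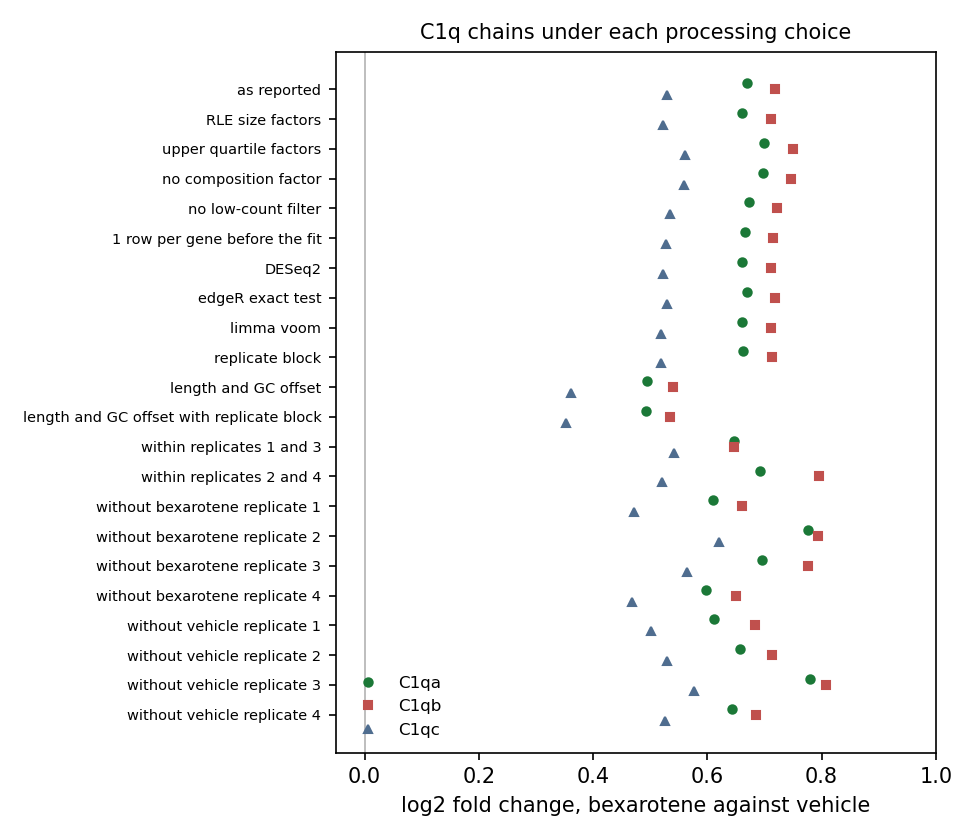
log2 fold change of each chain, bexarotene against vehicle (x axis), as reported and under each of 21 other settings (y axis). All values are above 0, the lowest with the length and GC offset (0.35 for C1qc with the replicate block) and C1qc is below C1qa and C1qb at every setting.

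Levels of different genes can be compared only per length. Per kilobase of transcript, C1qa averaged 104 ± 18.1 CPM in treated and 65.5 ± 9.92 CPM in vehicle libraries, C1qb 102 ± 16.01 and 61.9 ± 7.51 CPM, and C1qc 76.1 ± 11.8 and 52.7 ± 3.47 CPM (SD, n = 4). The RNA of the C chain was thus the lowest per length in both groups, although the protein contains the chains in equal number. Of the level per length summed over the chains, C1qc made up 26.9%, 27.0%, 27.3% and 26.7% in bexarotene replicates 1 to 4. The vehicle libraries were higher: it made up 30.1%, 29.6%, 27.4% and 30.4% in vehicle replicates 1 to 4. Vehicle replicate 3, which also had the highest chain levels of its group, was next to the bexarotene libraries in this share.

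The log2 level of C1qb minus that of C1qc was 0.28 ± 0.06 under bexarotene and 0.08 ± 0.08 under vehicle (SD, n = 4), a difference of 0.19. All 4 bexarotene libraries, at 0.20 to 0.33, lay above the vehicle libraries, at -0.01 to 0.19. Permuting the 8 libraries (exact, two-sided) gave p = 0.0286, and 0.0857 adjusted over the 3 chain pairs, which does not pass. C1qc minus C1qa differed by -0.14 between groups (exact permutation p = 0.0857, adjusted 0.129) and C1qb minus C1qa by 0.05 (exact permutation p = 0.486, adjusted 0.486). Without vehicle replicate 3 the adjusted p was 0.0429 for C1qb minus C1qc (difference 0.23) and for C1qc minus C1qa (difference -0.20) in the same exact permutation test. This library thus decides the call of C1qc minus C1qa. The unadjusted p of C1qb minus C1qc was already the smallest possible with all 8 libraries. Its adjusted p fell because another pair reached the smallest value too.

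**Figure D3:**
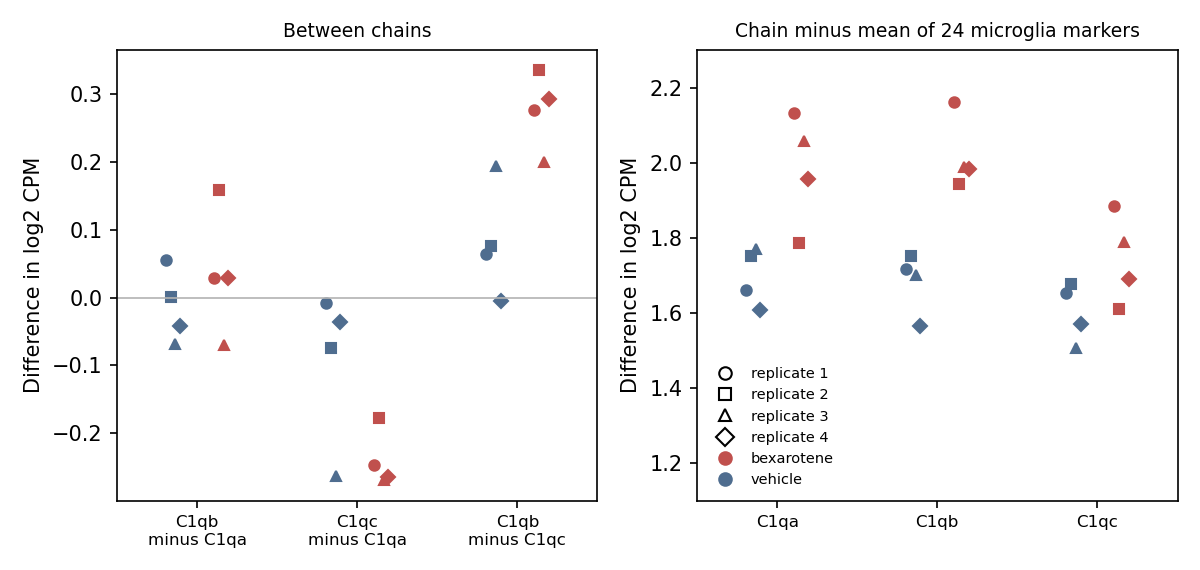
Differences in log2 CPM (y axis) between chains (left) and between each chain and the mean of 24 microglia markers (right), 1 point per library with vehicle left of bexarotene. C1qb minus C1qc, and C1qa and C1qb minus the markers, are higher in all 4 bexarotene libraries than in any vehicle library.

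Other transcripts of microglia were also higher, and the labelled cortex contained them at clear levels. Of 24 microglia markers, which leave out the chains, all 24 were tested and had log2 fold changes above 0, and their median was 0.35 against 0.00092 for all genes tested. None passed over all genes, and 15 had an unadjusted edgeR p below 0.05 with a higher level, the share of all genes being 4.88%. The summed marker level was 869 to 1200 CPM under bexarotene and 693 to 888 CPM under vehicle, so the sums overlapped, with vehicle replicate 3 above bexarotene replicate 3. Other lists also lay wholly above 0. All 8 oligodendrocyte markers (median 0.22) and all 7 endothelial markers (0.19) were higher, none at an unadjusted p below 0.05, with overlapping sums. So were all 9 striatum markers (0.94), the 7 choroid plexus markers (1.49), the 6 tested liver markers (0.55) and the 5 red cell markers (0.64), while 7 of 8 astrocyte markers (0.07) and 2 of 8 neuron markers (-0.05) were higher. The red cell markers Hba-a1 and Hba-a2 had the same values in every library, as did Hbb-b1 and Hbb-b2, so these are not separate measurements. In bulk tissue, more microglia and more RNA of these genes per cell cannot be told apart.

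Among the most abundant markers were Csf1r, the receptor for colony-stimulating factor (log2 fold change 0.29 ± 0.12), the protease gene Ctss (0.51 ± 0.15) and the fractalkine receptor gene Cx3cr1 (0.34 ± 0.10), each ± SE. Without bexarotene replicate 4 Csf1r had 0.17. Ctss was at 86.0 ± 15.4 CPM under vehicle and 122 ± 18.7 CPM under bexarotene (SD, n = 4), close to the chains in level. No marker had a larger log2 fold change than C1qb, 1 marker, Aif1 (0.69 ± 0.22), exceeded C1qa, and 5 exceeded C1qc. Aif1 encodes the calcium-binding protein Iba1 and was named after its value was seen.

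**Figure D4:**
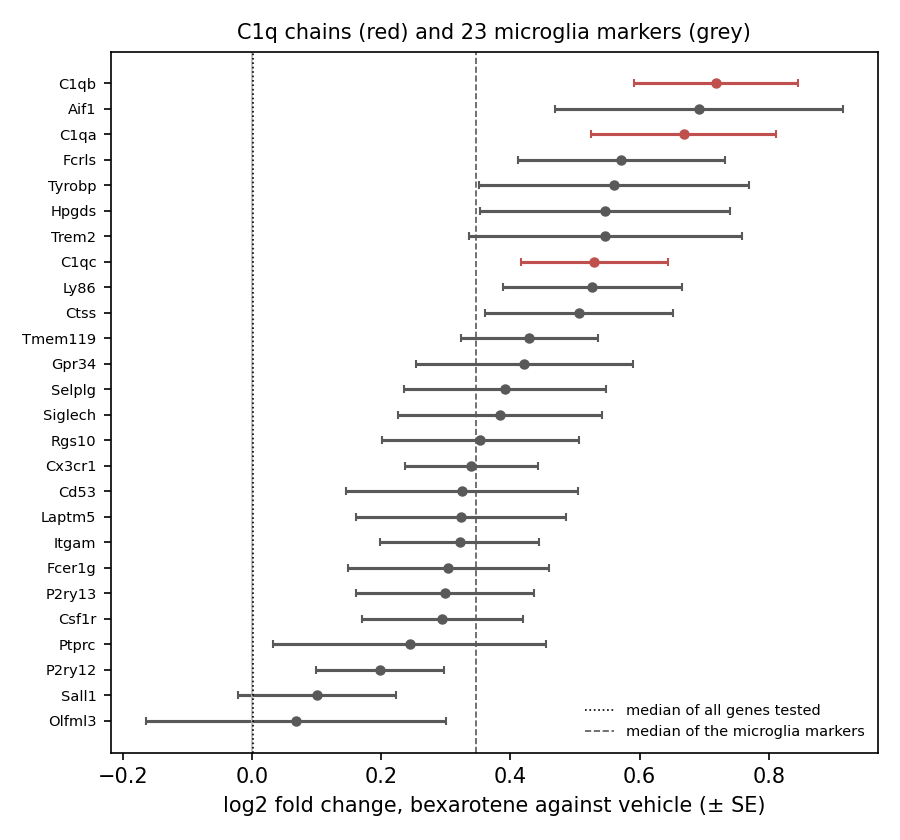
log2 fold change with its SE (x axis) of the 3 chains in red and of 23 of the 24 microglia markers in grey, sorted by value (y axis). C1qb (0.72) is at the top, and the dashed line at 0.35 is the median of the 24 markers.

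Relative to these markers, the A and B chains were higher under bexarotene, with the trend on transcript length left in. Of the markers named above, Aif1 (875 nt) and Ctss (1355 nt) had log2 fold changes of 0.69 and 0.51. The longer Csf1r (3870 nt) and Cx3cr1 (3753 nt) had 0.29 and 0.34. Other markers, named after their values were seen, were mixed. Of short ones, Tyrobp (564 nt) had 0.56 and Fcer1g (674 nt) 0.30. Of longer ones, Hpgds (3476 nt) had 0.55 and Olfml3 (5465 nt) 0.07. The part of transcript length in the comparison with the markers was not tested. C1qb minus the mean log2 CPM of the markers was 2.16, 1.94, 1.99 and 1.98 in the treated libraries, by replicate number, against 1.72, 1.75, 1.70 and 1.56 in the vehicle libraries. The groups did not overlap, and the difference was 0.34 (exact two-sided permutation p = 0.0286, adjusted over the 3 chains 0.0429). C1qa minus the markers differed by 0.29, with the same exact permutation p-values, and bexarotene replicate 2 (1.79) was just above vehicle replicate 3 (1.77). C1qc minus the markers differed by 0.14, with overlap between groups (exact permutation p = 0.114, adjusted 0.114). With replicate numbers as pairs, the exact sign-flip test gave an adjusted p of 0.188 for C1qa and C1qb; the smallest unadjusted p that 4 pairs allow is 0.125. Without any 1 of the vehicle libraries the groups stayed apart for C1qa and C1qb, with differences of 0.26 to 0.36. The adjusted exact permutation p was then 0.0857. The smallest unadjusted p that 4 against 3 libraries allow is 0.0286, so a pass was possible. The calls of C1qa and C1qb relative to the markers thus needed all 4 vehicle libraries, although the groups stayed apart. Without bexarotene replicate 2 the adjusted exact permutation p of C1qc was 0.0286, with a difference of 0.19. Within replicates 1 and 3 the differences were 0.38, 0.37 and 0.26 for C1qa, C1qb and C1qc, and within replicates 2 and 4 they were 0.19, 0.31 and 0.03.

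As sums, the chains stood at 35.3, 28.2, 32.8 and 29.7 per 100 of summed marker CPM in bexarotene replicates 1 to 4. In vehicle replicates 1 to 4 they stood at 26.2, 26.7, 26.1 and 23.9. Bexarotene replicate 2 was the closest to the vehicle libraries.

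**Figure D5:**
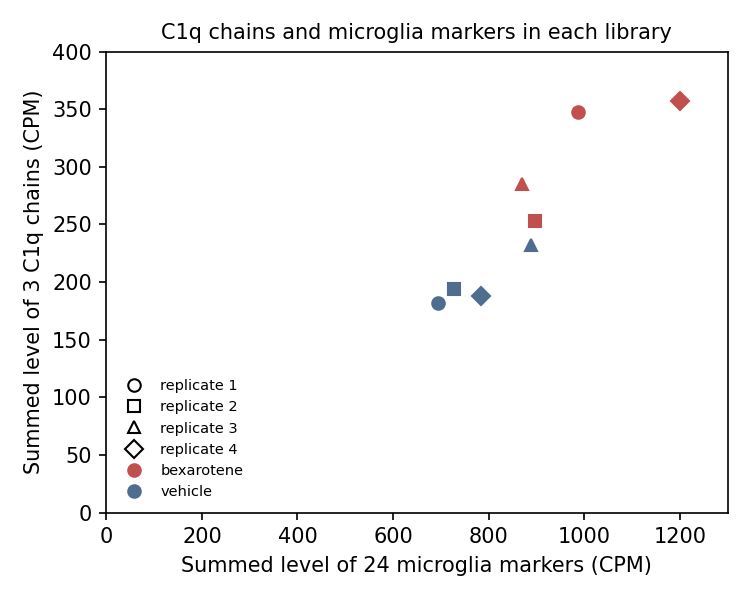
Summed CPM of the 3 chains (y axis) against the summed CPM of 24 microglia markers (x axis), 1 point per library. Vehicle replicate 3 (232 CPM of chains) and bexarotene replicates 2 and 3 (253 and 285 CPM) have like marker sums, of 869 to 897 CPM.

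Macrophages at the brain's borders also make C1q. Of 9 markers of these cells, 7 were higher and 2 lower, with a summed level of 20.6 to 28.9 CPM under bexarotene and 17.6 to 34.0 CPM under vehicle, the highest value being in vehicle replicate 1. Of 8 monocyte and neutrophil markers 3 passed the low-count filter, all lower, with sums of at most 2.64 CPM in any library. Groups overlapped in both sums. The choroid plexus sums given above were higher in every bexarotene library (75.2 to 1457 CPM) than in any vehicle library (15.9 to 41.5 CPM), as the chains were. Of the choroid plexus markers themselves, only Ttr separated the groups. Within the bexarotene group, replicate 2, with 1457 CPM of choroid plexus transcripts, had the lowest C1qa, C1qb and C1qc. The part of these transcripts in the difference between groups was not tested.

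Per kilobase of transcript, the next steps of the classical pathway were at lower levels than the chains. C4b, the highest of the 6 tested genes with a matched length, averaged 13.2 ± 2.76 CPM per kilobase in treated and 10.5 ± 2.95 CPM per kilobase in vehicle libraries (SD, n = 4), and the other 5 averaged at most 1.04 in either group. Of 8 genes for the C1 proteases and the components they act on, 7 were tested, 5 were higher and 2 lower, with a median log2 fold change of 0.28 against 0.00092 for all genes. None passed over all genes in edgeR's quasi-likelihood test, and 1, C1rl, had an unadjusted p below 0.05 with a higher level (0.042), at 0.53 against 0.268 CPM, the share of all genes being 4.88%. C4b, the component that C1s cleaves, was at 90.6, 55.5, 65.3 and 73.4 CPM under bexarotene and 73.0, 43.7, 66.7 and 41.9 CPM under vehicle. The groups overlapped, and its log2 fold change was 0.34 ± 0.21 (SE), or 0.20 without bexarotene replicate 1.

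C3, on which the pathway converges, was at 5.25, 8.21, 3.39 and 4.51 CPM under bexarotene and 0.423, 4.62, 0.376 and 4.52 CPM under vehicle, a log2 fold change of 1.09 ± 0.81 (SE). Only vehicle replicates 1 and 3 were below the bexarotene libraries. Within replicates 1 and 3 the log2 fold change of C3 was 3.43, with an edgeR quasi-likelihood adjusted p of 0.024, where 2.06% of genes were called higher, and within replicates 2 and 4 it was 0.48 (adjusted p = 0.915); the difference between the clusters was not tested. These libraries also had the lowest summed liver markers, at 0.776 and 4.97 CPM against 38.6 to 117 CPM in the other 6 libraries; their part in the C3 values was not tested. C2 (0.16 ± 0.34) and C4a (-0.21 ± 0.43) averaged 1.27 to 2.62 CPM in both groups and changed sign with single libraries left out. C4a and C4b are near-identical copies, between which reads can be split in counting.

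Inhibitors of the pathway gave a median log2 fold change of 0.17 over 14 of 15 members tested, 9 higher and 5 lower, none past the threshold over all genes. Clu, or clusterin, which blocks the terminal complex, averaged 833 ± 56.4 CPM in treated and 730 ± 55.9 CPM in vehicle libraries (SD, n = 4). The groups did not overlap for Clu, with bexarotene higher, as in 3.61% of all genes tested. Its log2 fold change was 0.19 ± 0.08 (SE), which fell to 0.080 ± 0.070 with the length and GC trends taken out. Vtn, the vitronectin gene, had 0.43 ± 0.24, Susd4 -0.04 ± 0.13 and Csmd1 -0.18 ± 0.16 (SE), all with overlapping groups. Without bexarotene replicate 1 Vtn had 0.19 and Csmd1 -0.07, and without bexarotene replicate 2 Csmd1 had -0.36. Serping1, the inhibitor of C1r and C1s, was named for this role and had 0.30 ± 0.36 (SE).

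Binding partners and receptors of C1q had a median log2 fold change of 0.06, with 10 of 18 tested members higher, 8 lower and none past the threshold over all genes. The neuronal pentraxin genes Nptxr (-0.16 ± 0.18) and Nptx1 (-0.10 ± 0.15), the calreticulin gene Calr (0.11 ± 0.09) and the endocytic receptor gene Lrp1 (-0.05 ± 0.12) were the most abundant, each ± SE. Genes of other proteins with a C1q domain had a median of 0.04, with 13 of 23 tested members higher, 10 lower and none past the threshold. Of these, C1qtnf4 had a log2 fold change of -0.08 ± 0.09, C1ql3, a synaptic organiser, -0.46 ± 0.24, Cbln2 0.02 ± 0.67 and Cbln4 -0.11 ± 0.50 (SE). Groups overlapped for all of these 4 relatives, as they did for the neighbours of the chain genes, Ephb2 (-0.29 ± 0.21) and Epha8 (0.23 ± 0.28). In 2 relatives, named after their values were seen, every bexarotene library was above every vehicle library, as in 3.61% of all genes tested. C1qtnf5 was at 14.5, 20.6, 13.8 and 11.8 CPM under bexarotene and 10.8, 9.44, 9.07 and 9.63 CPM under vehicle, with a log2 fold change of 0.64 ± 0.16 (SE), close to that of C1qa, and an edgeR adjusted p of 0.375 (unadjusted 0.00295). Its highest value was in bexarotene replicate 2, the library with the most choroid plexus transcripts, whose part in it was not tested. C1qtnf6, at 1.97 to 2.07 CPM under bexarotene and 1.42 to 1.62 CPM under vehicle, had 0.40 ± 0.21 (SE).

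Transcription factors of macrophages and the nuclear receptors had a median log2 fold change of 0.08, with 12 of 15 higher, 3 lower and none past the threshold. The bexarotene receptor genes Rxra (0.02 ± 0.09) and Rxrb (0.00 ± 0.07), the liver X receptor gene Nr1h2 (0.05 ± 0.13) and the neuronal and microglial factor Mef2c (-0.32 ± 0.26) were the most abundant. The PU.1 gene, listed as Sfpi1, was named because its motif was searched above. It averaged 7.18 CPM with treatment and 4.64 CPM without, with a log2 fold change of 0.63 ± 0.22 (SE), no overlap between groups, and an edgeR adjusted p of 0.494. Such separation, with bexarotene higher, was found in 3.61% of all genes tested.

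Over the 8 libraries as they stand, group difference included, the transcripts that followed a chain most closely were the other chains. Over 13974 other genes with a mean of at least 1 CPM, the Pearson correlation of log2 CPM was 0.988 between C1qa and C1qc, 0.984 between C1qa and C1qb and 0.983 between C1qb and C1qc, and each chain had the other chains at ranks 1 and 2. These ranks include the group difference for which the chains were chosen. The median over all genes was 0.02 to 0.03, and over the microglia markers 0.80 to 0.82. After subtraction of the group means the same pairs correlated at 0.954, 0.952 and 0.937. C1qa then still had the other chains at ranks 1 and 2, but C1qb had C1qa at rank 2 and C1qc at rank 4, and C1qc had C1qa at rank 3 and C1qb at rank 5, with Edem2 (0.960) above both. These correlations are descriptions over 8 libraries that share the group difference, their scaling and the clusters given above.

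After the chains, C1qa was followed by Cyba (0.964), a subunit of the phagocyte oxidase, Hexa (0.962), a lysosomal hexosaminidase subunit, and Ifi35 (0.961), an interferon-induced gene. C1qb was followed by the glycolipid transfer protein gene Gltp (0.977), the galectin-binding protein gene Lgals3bp (0.968) and Rrbp1 (0.967), which encodes a protein of the rough endoplasmic reticulum. C1qc was followed by Edem2 (0.974), of the same compartment, Rrbp1 (0.973) and Cyba (0.969). Cyba averaged 9.84 ± 1.46 CPM in treated and 5.61 ± 0.387 CPM in vehicle libraries, and Lgals3bp at 48.3 ± 9.25 and 27.6 ± 4.18 CPM (SD, n = 4). The log2 fold changes were 0.81 ± 0.14 for Cyba and 0.81 ± 0.15 for Lgals3bp (SE), each with an edgeR adjusted p of 0.36, and Edem2 had 0.12 ± 0.08. Of these 7 genes, the groups overlapped for Hexa and Edem2. Groups not overlapping, with bexarotene higher, were found in 3.61% of all genes tested. The 7 genes were picked by a correlation that includes the group difference, so their higher levels follow in part from that choice.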

How the data were processed

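Per the labels' protocols, RNA came from a Qiagen kit and the stranded TruSeq mRNA kit was used for libraries. The authors deposited raw counts of reads for each RefSeq transcript, per the file header and the whole-number values. The submitters' processing notes name mm9 and edgeR; the sources used here do not name the aligner, counter, strand setting or annotation release. The table had 28644 rows, and 0 columns of values were left out. Members and lists were chosen with earlier results of these data known.

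All 8 libraries were fitted with edgeR 4.0.16 (R 4.3.3) by the quasi-likelihood test, using TMM factors, its own default filter for low counts, robust dispersions and no term but the group. P-values were adjusted by Benjamini and Hochberg over 21285 rows for 16069 genes, and for each gene the row of highest mean was read. Calls were made at an adjusted p under 0.05. Standard errors come from the F statistic. DESeq2 1.42.0, edgeR's exact test and limma 3.58.1 (voom) were alternatives, and scripts were tested on simulated counts. Differences between genes use log2 CPM with a prior count of 2. Chain counts were 2535 to 9562 per library, a counting error of 1.02% to 1.99%. This covers counting only, since PCR copies are not told apart.

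Named genes were the chains, the 4 most abundant tested members of each pathway list and of the microglia list, any member called, and the 5 genes correlating best with each chain; others are named as such. A few list members are not reported here by name. Transcript lengths were matched by accession to GENCODE M21 for 93.6% of tested rows. The titles number replicates 1 to 4 in both groups. Once group means were subtracted, libraries of the same number correlated at 0.43, 0.28, 0.14 and 0.16, above the level of 0.1 set for pairs, so a fit with the number as a block was run. Bexarotene replicate 3 correlated more with vehicle replicate 1 (0.44) than with its own number. Likewise, bexarotene replicate 4 correlated more with vehicle replicate 2 (0.23) than with its own number. Pairs cannot be told apart from the clusters of replicates 1 and 3 against 2 and 4. No pair of libraries within a group agreed within counting noise: the chi-square per row was 11.8 or more.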

Additional observations from a re-analysis of the deposited data

Results flagged for a closer look

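In 80 checks of groups of 4 libraries, 3 had a library far from the others of its group; about 1 in 20 is flagged by chance. C1ql3 stood at 6.62 log2 CPM in bexarotene replicate 1, with the other bexarotene libraries at 7.23 to 7.30. Csf1r stood at 6.77 log2 CPM in vehicle replicate 3, with the other vehicle libraries at 6.56 to 6.59. Rxrb stood at 5.58 log2 CPM in vehicle replicate 1, with the other vehicle libraries at 5.66 to 5.68. The log2 levels of C1qa, C1qb and C1qc had no such library in either group.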

How the results depend on the processing

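C1qa, C1qb and C1qc kept a positive log2 fold change under all 21 alternatives. Leaving out 1 library at a time gave 0.60 to 0.78 for C1qa, 0.65 to 0.81 for C1qb and 0.47 to 0.62 for C1qc, with none past the edgeR threshold. With the replicate block they were 0.66, 0.71 and 0.52, with edgeR adjusted p-values of 0.264, 0.264 and 0.265, and the block changed no call except those of C1qa and C1qb relative to the microglia markers (differences 0.29 and 0.34). The chains passed with DESeq2 at 0.66, 0.71 and 0.52, with edgeR's exact test at 0.67 (C1qa) and 0.72 (C1qb), and within replicates 1 and 3 at 0.54 (C1qc). The number of genes called was 1, and 104 with DESeq2, 31 with the exact test, 710 within replicates 1 and 3, 0 within replicates 2 and 4 (859 at an unadjusted p below 0.05) and 2 without bexarotene replicate 2.

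C1qb minus C1qa was -0.014 within replicates 1 and 3. With 1 library left out it was 0.0093 to 0.085, C1qc minus C1qa -0.20 to -0.11 and C1qb minus C1qc 0.16 to 0.23. Relative to the microglia markers the ranges were 0.24 to 0.35 for C1qa, 0.29 to 0.36 for C1qb and 0.10 to 0.19 for C1qc. Without any 1 vehicle library the groups stayed apart for C1qa and C1qb, but the threshold was missed (adjusted p = 0.0857 in the exact permutation test). A pass was possible in that test, whose smallest unadjusted p with 4 against 3 libraries is 0.0286. C1qc passed without bexarotene replicate 2 (adjusted p = 0.0286 in the same test). Within replicates 1 and 3 (0.38 and 0.37) or 2 and 4 (0.19 and 0.31) the smallest exact permutation p is 0.333, so no call was possible.

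List medians moved as follows. C1 proteases and next components had 0.69 within replicates 1 and 3, and 0.11 to 0.38 with 1 library left out. Inhibitors had 0.030 within replicates 1 and 3, and 0.038 to 0.19 with 1 library left out, lowest without bexarotene replicate 2. Binding partners had 0.014 with voom, -0.018 with the length and GC offset, -0.015 within replicates 2 and 4, and -0.0041 to 0.059 with 1 library left out. Relatives had 0.16 with voom, 0.14 with the replicate block, 0.22 within replicates 1 and 3, and -0.042 to 0.25 with 1 library left out.

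Of the single genes named beside the chains, 601 values kept direction and call, 7 passed where the reported fit did not, and 43 had the other sign, all in genes far from the threshold. Those that passed were C3 within replicates 1 and 3 (3.43), Cyba with DESeq2 (0.80), with the exact test (0.81) and within replicates 1 and 3 (0.86), Lgals3bp with DESeq2 (0.80) and the exact test (0.81), and Rrbp1 with DESeq2 (0.34). Genes with the other sign within replicates 2 and 4 were C2 (-0.24), C4a (0.0070), Susd4 (0.21), Csmd1 (0.027), Cbln2 (-0.047), Cbln4 (0.88), Rxrb (-0.060), Nr1h2 (-0.11) and Rxra (-0.062). Within replicates 1 and 3 they were Lrp1 (0.036) and C1qtnf4 (0.13). With the length and GC offset they were Lrp1 (0.019), Rxrb (-0.028) and Nr1h2 (-0.016), and with offset and replicate block 0.023, -0.028 and -0.013. Rxrb was -0.0052 with RLE factors, -0.00099 with 1 row per gene, -0.0054 with DESeq2 and -0.0013 with voom. With 1 library left out, C2 ranged from -0.053 to 0.41, C4a from -0.44 to 0.092, Susd4 from -0.17 to 0.051, Nptx1 from -0.23 to 0.0026, Lrp1 from -0.12 to 0.064, Cbln2 from -0.50 to 0.49, Cbln4 from -0.56 to 0.32, Rxrb from -0.022 to 0.050, Nr1h2 from -0.029 to 0.15 and Rxra from -0.020 to 0.081. Without a change of sign, values moved by over 1.5 times for C4b (0.20 to 0.49), Vtn (0.19 to 0.57), Csmd1 (-0.36 to -0.07), Nptxr (-0.28 to -0.06), Calr (0.07 to 0.17), C1qtnf4 (-0.13 to -0.02), C1ql3 (-0.64 to -0.30), Mef2c (-0.55 to -0.15) and Csf1r (0.17 to 0.37). The cause of these changes was not tested. Depth did not limit the chains, whose counting error was at most 1.99%.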
